A study of Mus musculus with 12 samples.

Results

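The FoxO set described here comprised 10 genes out of the 37310 in the count table: the forkhead transcription factor genes Foxo1, Foxo3 and Foxo4, and 7 genes known as FoxO targets, Fbxo32, Txnip, Klf2, Sesn1, Ccng2, Irs2 and Cdkn1b. Foxo1 was chosen by its measured level, which was 6.84-fold higher in Runx1KO than in Control neutrophils kept with vehicle, and the other 9 were chosen by family or known function. Each of the 10 matched 1 row of the table by gene identifier, and all 10 passed the filter on low counts. The vehicle comparison of genotypes chose Foxo1, so values from it, and Foxo1 values set against vehicle libraries, are given as a description with no test. The rule for that choice used no LPS library, and tests of genotype compared the LPS libraries. The 10 genes were, however, chosen with earlier results of these data known. Those tests took the spread from all 12 libraries, so the vehicle libraries that chose Foxo1 also entered its spread.

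Bulk RNA-seq was done on neutrophils sorted from C57BL/6 mouse bone marrow as CD11b+, Siglec F-, F4/80- and Ly6G+. There were 4 groups of 3 libraries: Runx1KO cells with LPS (100 ng/mL lipopolysaccharide, a bacterial cell wall component sensed through Toll-like receptor signalling), Runx1KO cells with vehicle, Control cells with LPS and Control cells with vehicle, all held for 2 h in Hanks medium supplemented with HEPES and serum. The genotype is labelled only as Runx1 KO or Control. The sources used here name no Cre driver, deleted part of Runx1 or age of the mice. For Control, the design text speaks of LKS- cells in marrow pooled from a Runx1f/f mouse and a Runx1f/- mouse, which carries a germline mutation of 1 allele, whereas the labels of the Control libraries describe sorted neutrophils. Nothing states that the 3 libraries of a group came from different animals; the p-values then reflect the spread among these libraries, which may be technical.

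FoxO proteins bind DNA through a forkhead domain and switch on genes of cell cycle exit, stress defence, autophagy and atrophy. Growth factor signalling through PI3K and the kinase AKT phosphorylates them, and they are then held by 14-3-3 proteins outside the nucleus. Much of their activity is therefore set on the protein, which a transcript count does not measure. In lymphocytes Foxo1 maintains quiescence and homing genes, and in blood stem cells FoxO factors limit oxidative stress; in neutrophils Foxo3 has been linked to survival during inflammation.

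Promoter sequence is shown for Foxo1, whose transcript differed, and for the 3 targets that held a FoxO-type motif, so that the motifs can be seen in place. RefSeq promoters on build GRCm38.p6, which is not the mm9 build of the authors' alignment, were matched for 8 of the 10 genes (9 windows, since Sesn1 had a pair), and the 250 bases before the start site were searched on both strands. Capitals mark GTAAACA, the FoxO consensus, or CAAAACAA, an insulin response element also bound by FoxO factors; no searched motif overlapped another. Each sequence runs 5′ to 3′ on the strand of its gene.
Foxo1 (chr3:52268087-52268336, + strand): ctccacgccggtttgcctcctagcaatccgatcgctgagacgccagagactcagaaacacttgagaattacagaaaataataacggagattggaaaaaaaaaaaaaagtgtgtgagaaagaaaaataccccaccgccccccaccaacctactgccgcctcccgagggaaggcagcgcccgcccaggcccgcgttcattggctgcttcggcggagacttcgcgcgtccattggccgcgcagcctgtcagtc
Txnip (chr3:96557707-96557956, + strand): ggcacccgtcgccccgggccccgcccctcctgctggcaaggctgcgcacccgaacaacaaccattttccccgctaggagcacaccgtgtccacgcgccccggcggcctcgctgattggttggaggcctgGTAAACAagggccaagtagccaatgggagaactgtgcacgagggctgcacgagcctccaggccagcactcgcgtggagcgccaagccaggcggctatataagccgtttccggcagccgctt
Irs2 (chr8:11008930-11009179, - strand): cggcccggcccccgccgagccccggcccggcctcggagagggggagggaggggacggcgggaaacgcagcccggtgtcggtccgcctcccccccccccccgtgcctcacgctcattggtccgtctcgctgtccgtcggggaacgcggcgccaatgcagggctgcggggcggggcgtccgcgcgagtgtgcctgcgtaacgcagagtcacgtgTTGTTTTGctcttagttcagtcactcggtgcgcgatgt
Ccng2 (chr5:93267323-93267572, + strand): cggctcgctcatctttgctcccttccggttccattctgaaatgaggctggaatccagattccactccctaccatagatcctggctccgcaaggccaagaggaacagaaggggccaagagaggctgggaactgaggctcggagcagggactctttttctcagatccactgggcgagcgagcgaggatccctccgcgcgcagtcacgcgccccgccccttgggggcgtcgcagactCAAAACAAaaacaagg

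The Txnip window held 1 GTAAACA, which began at base -121 from the start site. The Irs2 and Ccng2 windows each held 1 CAAAACAA, at -38 on the opposite strand in Irs2 and at -16 in Ccng2. Of 32851 promoters of that length, 3.17% held GTAAACA and 2.21% held CAAAACAA. The core RUNX motif, searched as TGTGGT or TGCGGT, matched in 0 of the 9 windows, Foxo1 included, against 18.6% of all promoters. A match is a description of letters and is no evidence of binding, and its absence covers these windows alone.

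The libraries differed in ways that the labels do not give. Total counts ranged from 19023610 to 26225169. Levels are given as CPM, the read count relative to the TMM-scaled library total. The summed level of 10 NF-kB response genes (Tnf, Nfkbia and others that LPS induces) was 15940, 28010 and 64900 CPM in Runx1KO LPS libraries 1, 2 and 3, and 15930, 15530 and 1005 CPM in Runx1KO vehicle. In Control it was 22170, 18770 and 22950 CPM with LPS and 16560, 11920 and 1990 CPM with vehicle. The library labelled Runx1KO LPS 1 thus stood at the level of Runx1KO vehicle libraries 1 and 2, and these values show no LPS response in it. Whether it was treated as labelled was not tested, so the means with LPS in Runx1KO hold a library in doubt. Log2 fold changes of the 10 genes between genotypes with LPS are also given without it. Vehicle library 3 was far below the other vehicle libraries in both genotypes. Runx1 itself, the targeted gene, was counted in every library, at 43.7 to 75.4 CPM in Runx1KO and 26.1 to 56.2 CPM in Control; a count over all exons does not check a deletion of unknown extent. The 10 neutrophil markers were counted in all 12 libraries. Ly6g, the antigen gene of the sort, was lower in every Runx1KO library, at 156 to 351 CPM in Runx1KO LPS and 395 to 471 CPM in Control LPS, and at 106 to 154 CPM in Runx1KO vehicle and 381 to 418 CPM in Control vehicle; with LPS this did not pass (-0.93, edgeR adjusted p = 0.315). The sum of the 10, most of it from S100a8, S100a9 and Ltf, was 119600 to 122200 CPM in Runx1KO LPS, 86340 to 106600 CPM in Runx1KO vehicle, 114000 to 138100 CPM in Control LPS and 119800 to 126900 CPM in Control vehicle.

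Foxo1 (ENSMUSG00000044167.5) was higher in every Runx1KO library than in every Control library. With LPS it stood at 34.4, 21.4 and 14.1 CPM in Runx1KO libraries 1, 2 and 3, against 3.36, 4.45 and 4.10 CPM in Control. The lowest Runx1KO library was still above the highest Control library. The group means were 23.3 ± 10.3 CPM in Runx1KO and 3.97 ± 0.558 CPM in Control (SD, n = 3 each). Foxo1 rose with a log2 fold change of 2.55 (SE 0.33), a 5.87-fold higher level, and passed edgeR's quasi-likelihood test over all genes (Benjamini-Hochberg adjusted p = 0.00518). It was 1 of the 10 genes called in that comparison and the other 9 did not pass, where 0.921% of the 12917 genes tested were called, 0.348% higher and 0.573% lower. Its libraries did not overlap between genotypes, and neither did those of Fbxo32, which was lower; of all genes tested 13.3% did not overlap, 6.51% higher and 6.76% lower. Foxo1 passed with DESeq2 (adjusted p = 8.28e-11), limma-voom (0.00805) and a replicate block (0.0051) and when any single library was left out (2.16 to 2.81). It did not pass with the compared groups alone (2.54, edgeR adjusted p = 0.058), the fit that held no vehicle library. Nor did Foxo1 pass without the libraries numbered 1 (2.05, edgeR adjusted p = 0.0727) or without those numbered 2 (2.70, 0.231). The log2 difference between same-numbered libraries was 3.32, 2.24 and 1.76.

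With vehicle, the comparison that chose the gene, Foxo1 was at 30.5, 29.0 and 31.4 CPM in Runx1KO and 3.32, 4.84 and 5.12 CPM in Control. The 3 Runx1KO libraries lay close together, at 30.3 ± 1.20 CPM, against 4.42 ± 0.968 CPM in Control (SD, n = 3 each). The log2 fold change was 2.77 (SE 0.33), 6.84-fold. As a description, 1 of the 10 genes was past the threshold there, where 0.952% of genes were, 0.348% higher and 0.604% lower. The genotype effect with LPS less that with vehicle was -0.22 on the log2 scale (SE 0.44), and -0.62 without Runx1KO LPS library 1. These values are a description, since the vehicle values chose the gene. The LPS and vehicle cells of a genotype may come from the same mice, so the comparison with LPS is a second measurement and not necessarily a second set of animals.

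**Figure D1:**
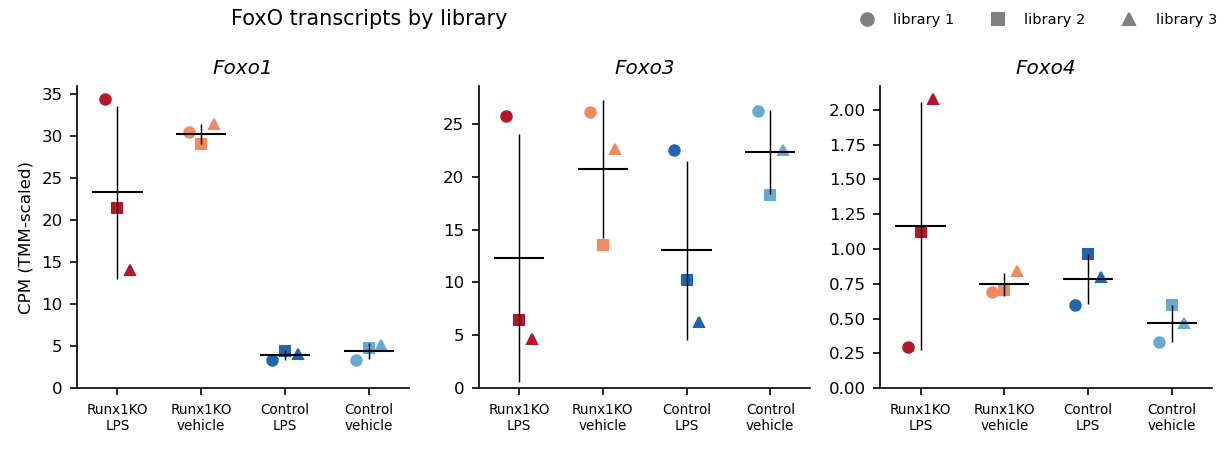
Levels of Foxo1, Foxo3 and Foxo4 in CPM on TMM-scaled library sizes (y axis) in each library (points, shape by library number) of the 4 groups; horizontal lines are group means and vertical lines ± SD, n = 3, drawn no lower than 0. Foxo1 was at 14.1 CPM or above in every Runx1KO library and at 5.12 CPM or below in every Control library, while Foxo3 and Foxo4 overlapped between genotypes with LPS.

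Ordered by mean level, Foxo1 ran from Runx1KO vehicle through Runx1KO LPS and Control vehicle to Control LPS. The pairs of neighbours within a genotype overlapped in their libraries. As a description, since the vehicle libraries chose the gene, the log2 fold change for LPS was -0.38 (SE 0.31) in Runx1KO, -0.78 there without LPS library 1, and -0.16 (SE 0.32) in Control. Within Runx1KO, Foxo1 with LPS was lowest in library 3, where the NF-kB response genes summed to 64900 CPM, and highest in library 1, where they summed to 15940 CPM. The part of that response in the Foxo1 level was not tested.

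**Figure D2:**
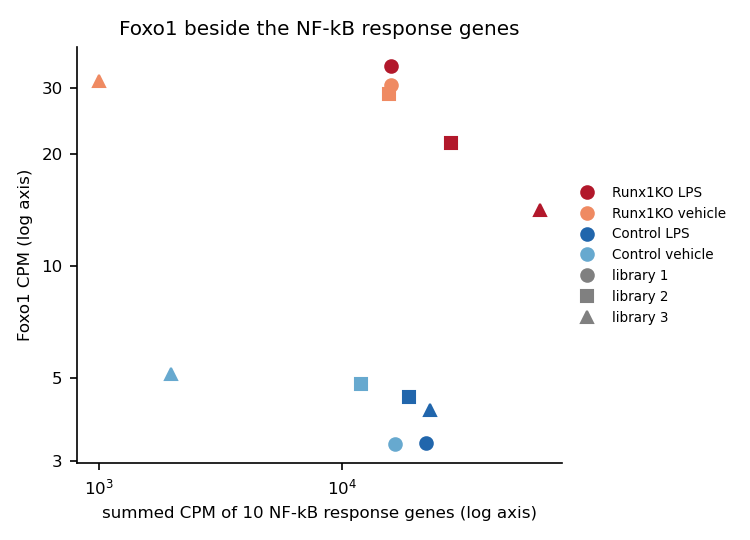
Foxo1 level in CPM (y axis, log scale) against the summed CPM of 10 NF-kB response genes (x axis, log scale), 1 point per library, colour by group and shape by library number. Every Runx1KO library lies above every Control library in Foxo1. Response genes span 1005 to 64900 CPM in Runx1KO libraries and 1990 to 22950 CPM in Control libraries. The Runx1KO LPS library with 64900 CPM of response genes has the lowest Foxo1 of its genotype, 14.1 CPM.

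Some markers of other cell types differed with genotype. The 9 megakaryocyte and platelet markers summed to 31.0 to 48.2 CPM in Runx1KO LPS libraries and 2.73 to 7.77 CPM in Control LPS, and to 34.9 to 41.3 CPM in Runx1KO vehicle and 1.80 to 3.40 CPM in Control vehicle. All 9 were counted in every Runx1KO library. With LPS 2 of the 8 tested rose and 0 fell (edgeR), where 0.348% of all genes were called higher and 0.573% lower. Of the 10 T and NK cell markers, Cd3d was at 1.35 to 3.06 CPM in the Runx1KO libraries and 32.4 to 47.5 CPM in the Control libraries. It was the 1 gene that fell of the 6 of that list tested with LPS, and it made up most of the list's sum in Control, which was 6.25 to 11.5 CPM in Runx1KO LPS and 38.8 to 55.8 CPM in Control LPS. The other T and NK markers went both ways. Over 6 libraries each, Nkg7 had 504 reads in Runx1KO and 413 in Control, Lck 107 and 91, and Cd8a 68 and 22. Klrb1c (21 and 14) and Cd3g (34 and 32) also had more in Runx1KO. Il7r (149 and 205), Cd4 (17 and 23), Cd3e (24 and 27) and Trac (22 and 24) had fewer. Cd3e and Trac were at or below 0.508 CPM in every library. The basophil genes Prss34, Mcpt8 and Fcer1a were at 0 counts in all 6 Runx1KO libraries and had 1298, 337 and 96 reads over the 6 Control libraries, while the sum of the 7 basophil and mast cell markers, Kit included, overlapped (5.78 to 48.4 CPM in Runx1KO LPS and 13.5 to 36.7 CPM in Control LPS). Ear2, of the eosinophil list, had 24 reads in Runx1KO and 1544 in Control. Ear1 (4 and 62 reads), Epx (39 and 89) and Prg2 (308 and 474) also had fewer in Runx1KO. Ccr3 (512 and 89), Siglecf (1097 and 934) and Il5ra (85 and 31) had more. That list's sum was 10.2 to 14.3 CPM in Runx1KO LPS and 10.9 to 31.8 CPM in Control LPS. The sums of the B lineage list (86.0 to 133 CPM in Runx1KO LPS and 67.9 to 204 CPM in Control LPS), the monocyte and macrophage list (266 to 2048 and 176 to 572 CPM) and the erythroid list (216 to 1717 and 200 to 684 CPM) overlapped between genotypes, although the B cell surface gene Ms4a1 was at 0 counts in 5 of 6 Runx1KO libraries. Most of the erythroid sum came from Hba-a1 and Hbb-bs. All 7 erythroid markers had a positive log2 fold change between genotypes with LPS (median 1.43), and 0 passed (edgeR). Of them, Gata1 was at 1.29 to 2.65 CPM in the Runx1KO libraries and 0.127 to 0.672 CPM in the Control libraries. The sum of the 8 progenitor markers overlapped too (32.5 to 99.05 CPM in Runx1KO LPS and 38.9 to 62.6 CPM in Control LPS). With LPS 0 of the 8 passed (edgeR). Without overlap there, 2 were higher and 1 was lower, against 6.51% and 6.76% of all genes. Meis1 was at 0.911 to 1.53 CPM in the Runx1KO libraries and 0 to 0.565 CPM in the Control libraries, and Gfi1b at 2.73 to 4.15 and 0.651 to 2.48 CPM. In bulk RNA, more cells of a type and more RNA per cell cannot be told apart. The part of these cells in the Foxo1 level was not tested.

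Foxo1 has an antisense gene, Gm20402, that shares 674 exon bases with it in a GENCODE annotation of GRCm38. Gm20402 had 0 counts in all 12 libraries. Gm15943, which shares 186 exon bases with Fbxo32 on the opposite strand, had 0 counts as well, and a transcript opposite Irs2 shares 162 exon bases with it. Whether the counting used strand is not given, so reads from either strand of those bases cannot be told apart.

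Of the paralogs, Foxo3 did not follow Foxo1. Foxo3, the most counted FoxO gene of Control cells, was at 25.8, 6.42 and 4.67 CPM in Runx1KO LPS libraries and 22.5, 10.3 and 6.31 CPM in Control LPS. It was at 26.1, 13.5 and 22.6 CPM in Runx1KO vehicle and 26.3, 18.3 and 22.5 CPM in Control vehicle. The genotypes overlapped in both treatments, and library 1 was the highest of each group, with LPS and with vehicle. Its log2 fold change between genotypes with LPS was -0.08 (SE 0.61; edgeR adjusted p = 0.989), and with vehicle the value was -0.11. With LPS against vehicle Foxo3 had -0.75 (SE 0.61) in Runx1KO and -0.78 (SE 0.61) in Control, and neither passed (adjusted p = 0.887 and 1). Without Runx1KO LPS library 1, the one in doubt, Foxo3 had -1.23 between genotypes with LPS (adjusted p = 0.236) and -1.91 for LPS in Runx1KO (adjusted p = 0.21). Between same-numbered libraries that difference was -0.02, -1.06 and -2.25 in Runx1KO and -0.22, -0.83 and -1.82 in Control, lowest in both genotypes for library 3.

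Foxo4, the X-linked member of the family, was counted at 7 to 37 reads a library in Runx1KO and 8 to 19 in Control. With LPS it was at 0.300, 1.12 and 2.08 CPM in Runx1KO and 0.601, 0.961 and 0.800 CPM in Control (log2 fold change 0.55, SE 0.60, edgeR adjusted p = 0.868). With vehicle it was at 0.688, 0.709 and 0.841 CPM in Runx1KO and 0.336, 0.599 and 0.465 CPM in Control (log2 fold change 0.67, a description). These libraries did not overlap, as was the case for Foxo1 and for 13.2% of all genes tested, 5.42% higher and 7.82% lower. In Control the LPS libraries of Foxo4 were all above the vehicle libraries (0.75, SE 0.61, edgeR adjusted p = 1), 1 of the 10 genes without overlap there, against 5.16% of all genes, 2.84% higher and 2.32% lower.

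Foxo1 took a larger share of FoxO reads in Runx1KO. Of the reads on Foxo1, Foxo3 and Foxo4 together, Foxo1 held 56.9, 73.9 and 67.7% in Runx1KO LPS libraries, against 12.7, 28.4 and 36.6% in Control LPS, with no overlap. With vehicle the shares were 53.2, 67.1 and 57.2% in Runx1KO and 11.1, 20.4 and 18.2% in Control. A long transcript collects more reads, so levels between genes were also set per kilobase of annotated exon. On that scale Foxo1 averaged 2.69 ± 1.19 CPM per kb in Runx1KO LPS and 0.458 ± 0.0643 in Control LPS. With vehicle the means were 3.49 ± 0.138 CPM per kb in Runx1KO and 0.511 ± 0.112 in Control. Foxo3 averaged 1.62 ± 1.55 and 1.72 ± 1.11 CPM per kb in the Runx1KO and Control LPS groups, and 2.74 ± 0.858 and 2.95 ± 0.525 in the Runx1KO and Control vehicle groups (SD, n = 3 each). Per length, Foxo1 stood below Foxo3 in every Control library. Foxo4 was the lowest in each group mean, from 0.134 to 0.335 CPM per kb.

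The 7 target genes were then compared between genotypes. With LPS 0 of the 7 passed the test by edgeR, DESeq2 or limma-voom, and 0 had an unadjusted p under 0.05 by edgeR. Over the 10 genes, 5 had a positive and 5 a negative log2 fold change with LPS (median 0.02; 0.03 over all genes tested), and 8 had a positive value with vehicle (median 0.23; 0.00 over all genes).

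**Figure D3:**
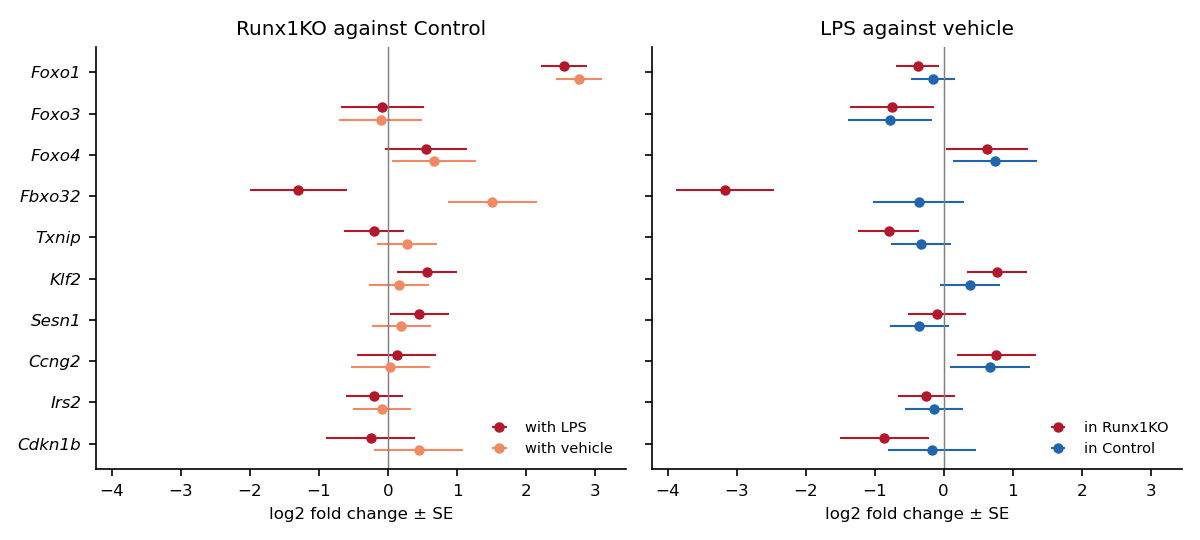
Log2 fold changes (x axis, ± SE of the edgeR fit) of the 10 genes for Runx1KO against Control (left; with LPS above, with vehicle below, for each gene) and for LPS against vehicle (right; in Runx1KO above, in Control below). Foxo1 lies at 2.55 with LPS and 2.77 with vehicle, and Fbxo32 at -1.30 with LPS and 1.51 with vehicle.

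Fbxo32 encodes atrogin-1, an F-box adaptor of a ubiquitin ligase that FoxO factors induce in wasting muscle. It was at 0.257, 0.584 and 0.281 CPM in Runx1KO LPS, on 5 to 13 reads a library, and at 0.601, 1.01 and 1.18 CPM in Control LPS. With vehicle it was at 1.25, 2.04 and 6.97 CPM in Runx1KO and 0.588, 1.40 and 1.61 CPM in Control. Runx1KO libraries were thus the lower with LPS, with no overlap, while with vehicle they overlapped Control and library 3 stood far above the rest. The log2 fold change between genotypes with LPS was -1.30 (SE 0.70; edgeR adjusted p = 0.594). For LPS against vehicle it was -3.17 (SE 0.71) in Runx1KO, an unadjusted p = 7.77e-04 that did not pass over all genes (edgeR adjusted p = 0.873), and -0.36 (SE 0.65) in Control (adjusted p = 1). The same-numbered differences in Runx1KO were -1.96, -1.66 and -4.26. Its LPS and vehicle libraries did not overlap, so any pairing gives negative differences.

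Txnip, which binds thioredoxin and limits glucose uptake, was the most counted of the targets per length. It was at 735, 1109 and 842 CPM in Runx1KO LPS and 1382, 1228 and 480 CPM in Control LPS. With vehicle it was at 1778, 1313 and 1577 CPM in Runx1KO and 1709, 1530 and 627 CPM in Control. The genotypes overlapped in both treatments, and Control library 3 was low with and without LPS. Every Runx1KO LPS library was below every Runx1KO vehicle library (log2 fold change -0.80, SE 0.44, edgeR adjusted p = 0.873), which also held for 3.2% of all genes tested. Fbxo32, Txnip and Klf2 were the 3 genes of the set without overlap there, against 6.71% of all genes. In Control the value was -0.32 (SE 0.43). The antisense gene Gm15441 shares 606 exon bases with Txnip and had 11 to 107 counts a library, against at least 10207 for Txnip.

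Klf2, a zinc finger factor that keeps lymphocytes quiescent and restrains activation of myeloid cells, was at 244, 171 and 227 CPM in Runx1KO LPS and 157, 174 and 104 CPM in Control LPS. With vehicle it was at 128, 159 and 89.2 CPM in Runx1KO and 123, 170 and 41.2 CPM in Control. The log2 fold change between genotypes with LPS was 0.56 (SE 0.44; edgeR adjusted p = 0.769). Within Runx1KO the LPS libraries were all above the vehicle libraries (0.77, SE 0.44, adjusted p = 0.873), which was the case for 3.51% of genes, while the Control groups overlapped (0.38, SE 0.44, adjusted p = 1).

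**Figure D4:**
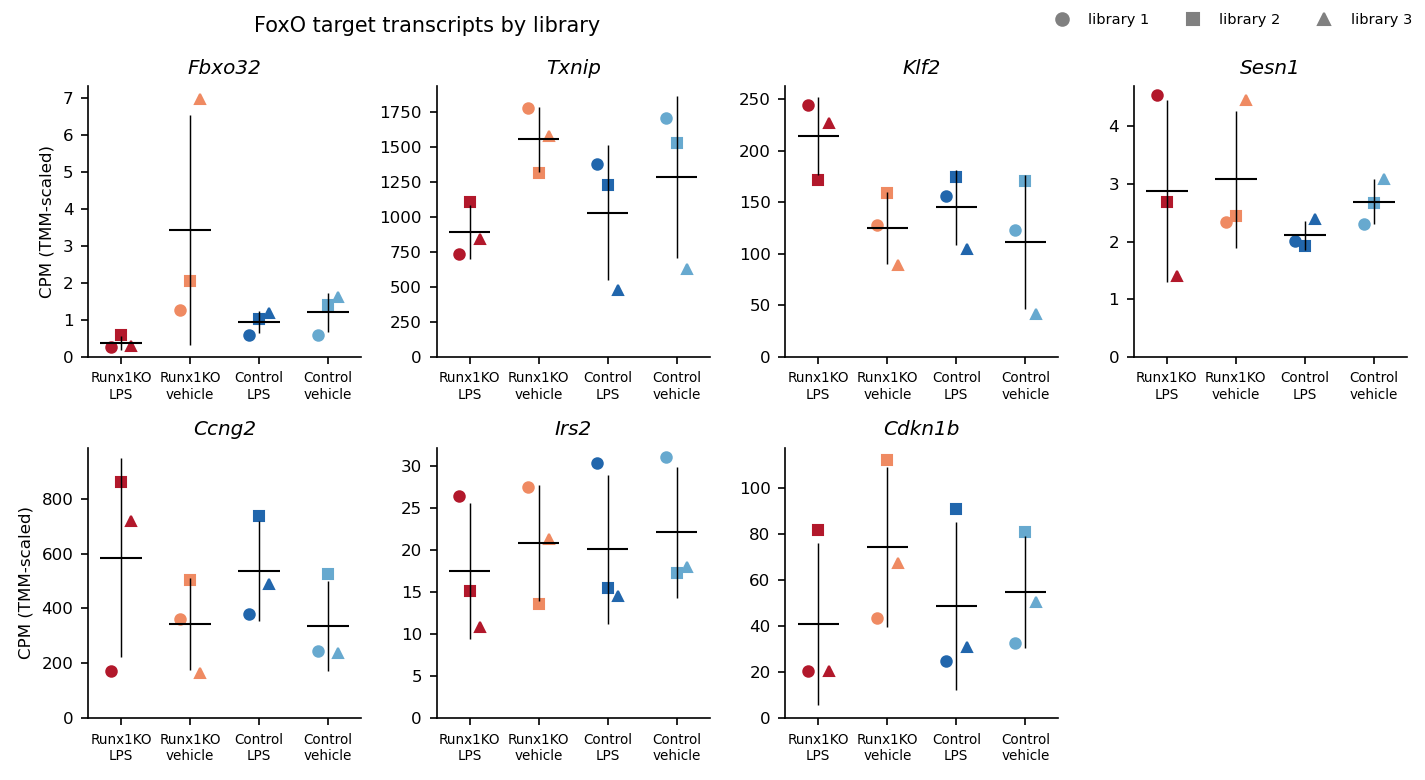
Levels of the 7 target genes in CPM on TMM-scaled library sizes (y axis) in each library (points, shape by library number) of the 4 groups; horizontal lines are group means and vertical lines ± SD, n = 3, drawn no lower than 0. Cdkn1b and Ccng2 follow the library number more than the group, with library 2 highest in each group.

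Cdkn1b, Ccng2 and Irs2, like Foxo3, had the same library number highest in all 4 groups, and Sesn1 did not. Cdkn1b, an inhibitor of cyclin-dependent kinases, was at 20.7, 81.7 and 20.4 CPM in Runx1KO LPS and 24.8, 90.9 and 30.8 CPM in Control LPS. With vehicle it was at 43.6, 112 and 67.6 CPM in Runx1KO and 32.8, 81.0 and 50.6 CPM in Control. Library 2 was the highest in all 4 groups. Ccng2, an unconventional cyclin of cell cycle exit, was likewise highest in library 2 of each group, at 862 CPM in Runx1KO LPS, 502 CPM in Runx1KO vehicle, 735 CPM in Control LPS and 524 CPM in Control vehicle; the other libraries lay between 166 and 717 CPM. Irs2, the adaptor that carries insulin and IGF receptor signals to PI3K, was highest in library 1 of each group (26.5, 27.5, 30.3 and 31.1 CPM in the same order) and at 10.9 to 21.4 CPM elsewhere. Sesn1, a stress-induced inhibitor of mTOR signalling, was at 4.54, 2.69 and 1.41 CPM in Runx1KO LPS and 2.00, 1.92 and 2.40 CPM in Control LPS, and at 2.35, 2.44 and 4.45 CPM in Runx1KO vehicle and 2.31, 2.68 and 3.09 CPM in Control vehicle.

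Between genotypes with LPS, the log2 fold change was -0.25 (SE 0.64) for Cdkn1b, 0.13 (SE 0.57) for Ccng2, -0.20 (SE 0.42) for Irs2 and 0.45 (SE 0.43) for Sesn1. Their edgeR adjusted p values were 0.966, 0.978, 0.956 and 0.835. The Ccng2 value was -0.067 with library size alone as scaling. Without Runx1KO LPS library 1 the values were 0.06 for Cdkn1b, 0.56 for Ccng2, -0.63 for Irs2 and -0.04 for Sesn1. Cdkn1b and Sesn1 thus turned sign. In that fit Foxo1 had 2.16, Foxo4 1.01, Fbxo32 -1.08, Klf2 0.45 and Txnip -0.08 (-0.20 with all libraries). Of the 10 genes it called 1, Foxo1 (edgeR adjusted p = 0.00756), where 135 of all 13312 genes tested were called. In the vehicle comparison the values were 0.44 for Cdkn1b, 0.03 for Ccng2, -0.09 for Irs2 and 0.20 for Sesn1, and that of Irs2 was 0.012 with library size alone.

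LPS against vehicle called 0 of the 9 genes other than Foxo1 in Runx1KO and 0 in Control, by edgeR, DESeq2 and limma-voom, and 0 in Runx1KO without LPS library 1. At an unadjusted p under 0.05 edgeR had 1 of the 9 in Runx1KO, Fbxo32, and 0 in Control. Over all genes the shares called were 0% in both genotypes (edgeR), with 676 genes in Runx1KO and 78 in Control at an unadjusted p under 0.05. DESeq2 called 1 gene in Runx1KO and 0 in Control. Of all 10, Foxo1 included, 7 had a negative value in each genotype; the medians were -0.31 in Runx1KO and -0.16 in Control, against 0.03 and -0.02 over all genes. The tests of the difference between the responses called 0 of the 9 as well (edgeR, with 1 at an unadjusted p under 0.05; 0 by DESeq2 and by limma-voom), and 0% of all genes.

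A pair of further lists gave the rest of the pathway: 36 genes called regulators here and 51 further targets. Apart from Foxo6, the first list held genes that regulate FoxO proteins (PI3K, AKT and SGK kinases, 14-3-3 proteins, deacetylases, ubiquitin ligases and the export receptor Xpo1). Foxo6, a further FoxO paralog, had 0 counts in each of the 4 groups and was not tested. With LPS, 0 of the 33 regulators tested rose and 0 fell between genotypes (edgeR; 6 had an unadjusted p under 0.05, as had 1311 of all 12917 genes). Their median was 0.02 (log2), against 0.03 over all genes. Of the 41 further targets tested, 1 rose and 0 fell, where 0.348% of all genes were called higher and 0.573% lower, and 4 had an unadjusted p under 0.05. Their median was -0.00. The gene that rose was Cat, catalase, which breaks down hydrogen peroxide. It was at 34.0, 61.6 and 71.3 CPM in Runx1KO LPS and 14.3, 15.1 and 20.1 CPM in Control LPS, without overlap (log2 fold change 1.75, SE 0.36, edgeR adjusted p = 0.0439). With vehicle Cat was at 27.8, 31.2 and 14.6 CPM in Runx1KO and 12.8, 11.2 and 7.995 CPM in Control. The call of Cat did not pass with limma-voom (adjusted p = 0.0583) or with the compared groups alone (0.118). Of 15 fits that left out a library or a library number, it passed without Runx1KO LPS library 1 (2.01, adjusted p = 0.0198) and without Runx1KO vehicle library 3 (1.75, 0.0264), and the adjusted p was 0.0552 to 0.647 in the others.

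With the replicate number as a block, 3 genes of these lists passed with LPS: Cat (1.74, edgeR adjusted p = 0.0359) and Cited2 (1.43, adjusted p = 0.0408) higher, and Akt2 (-0.92, adjusted p = 0.0394) lower. Cited2, a co-regulator that binds CBP and p300 proteins, was at 152, 80.3 and 181 CPM in Runx1KO LPS and 62.7, 50.0 and 41.2 CPM in Control LPS. Akt2, a kinase that phosphorylates FoxO proteins, was at 61.5, 115 and 97.0 CPM in Runx1KO LPS and 140, 192 and 175 CPM in Control LPS. Neither gene overlapped between genotypes, and neither passed edgeR's test on all 12 libraries without the block (adjusted p = 0.069 and 0.238). Cited2 passed with DESeq2 (1.43, adjusted p = 0.00231) and, by edgeR, without Runx1KO LPS library 2 (1.69, adjusted p = 0.0362). The block called 302 genes in all with LPS, against 119 without it, and 315 against 123 with vehicle. The vehicle comparison is a description for these lists too. S1pr1, a sphingosine phosphate receptor of cell egress, had a log2 fold change of 2.32 there and Tob1, an antiproliferative factor, -2.02. S1pr1 was at 19.6, 26.6 and 99.9 CPM in Runx1KO vehicle and 5.88, 7.79 and 15.7 CPM in Control vehicle, with library 3 the highest of each group. Tob1 was at 35.7, 16.1 and 14.1 CPM in Runx1KO vehicle and 99.4, 65.3 and 103 CPM in Control vehicle. LPS against vehicle called 0 genes of both lists in either genotype (edgeR; 4 further targets had an unadjusted p under 0.05 in Runx1KO), and DESeq2 and limma-voom called 0.

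**Figure D5:**
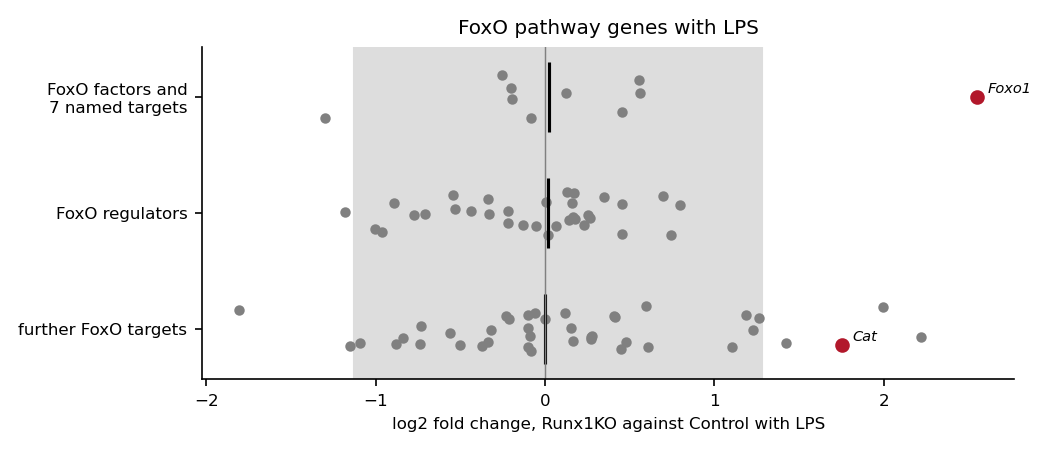
Log2 fold changes of Runx1KO against Control with LPS (x axis) for the 10 genes, 33 regulators and 41 further targets tested (rows; 1 point per gene, vertical jitter without meaning). Red points passed edgeR's test (Foxo1 and Cat), black lines are medians and the grey band spans the 5 to 95 percentiles of all 12917 genes, -1.13 to 1.28.

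The genes whose pattern over the 12 libraries was most like that of Foxo1, among 7037 ranked, were Arhgap12, Zfp467, Phactr2, Ralgps2, Stx17, Mrpl19, Afdn and P4ha1. Pearson's r of their log2 CPM with Foxo1 was 0.934 to 0.989 over the 12 libraries, which fall into the 2 genotypes; over the 6 libraries of Runx1KO alone it was 0.0866 to 0.969 and over the 6 of Control -0.536 to 0.804. Arhgap12 had the highest value. It averaged 31.2 ± 25.1 CPM in Runx1KO LPS and 1.38 ± 0.568 CPM in Control LPS, and 41.2 ± 18.2 CPM in Runx1KO vehicle and 1.25 ± 0.649 CPM in Control vehicle (SD, n = 3 each). Phactr2, a regulator of phosphatase and actin, had an r of 0.969 within Runx1KO and 0.804 within Control, and averaged 86.1 ± 19.2 CPM in Runx1KO LPS and 61.3 ± 4.57 CPM in Control LPS. Of the 10 genes of the set, none of the other 9 had an r with Foxo1 above 0.431 (Sesn1), and Ccng2 had the lowest at -0.173. These values share libraries and depth and are given with no test.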

How the data were processed

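The series held 1 table of read counts per gene with 12 columns, which were matched to samples by name (0 further columns). The deposited values are raw whole-number counts from the authors. The submitters' processing notes name STAR 2.6.0a, featureCounts and the build mm9. Annotation, strand setting and read filters were not given in the sources used here. Genes were kept with edgeR 4.0.16 filterByExpr (12917 genes), scaled by TMM (factors 0.699 to 1.20) and fitted in 1 model of all 4 groups by edgeR's quasi-likelihood method (R 4.3.3), with Benjamini-Hochberg adjustment over all genes and a threshold of 0.05. Log2 CPM used a prior count of 2. DESeq2 1.42.0 and limma 3.58.1 (voom) were alternatives, with other scalings, no filter, a replicate block, the compared groups alone and each library or library number left out. The fit was tested on simulated data.

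Groups came from the sample titles. Total counts give each library a similar precision; reads carry no molecular identifiers. For 1 gene, exact permutation of 3 against 3 libraries reaches no two-sided p under 0.1, so the fit borrowed spread from all genes. Every pair of libraries of a group differed beyond sampling noise (lowest chi-square per degree of freedom 9.91 over genes with at least 20 summed counts). The members and lists were chosen with earlier results of these data known. Named genes are the 10 members, list genes past the threshold (up to 6 a direction), the 8 genes most like Foxo1 (mean log2 CPM no lower than 2), and Runx1; genes past the threshold under the block alone were named after their values were seen. Deviations from group means of same-numbered libraries correlated at 0.374 to 0.479 between genotypes with vehicle and 0.429 to 0.565 with LPS. Between LPS and vehicle in Control the range was 0.394 to 0.667, so the numbers pair the libraries in these comparisons. In Runx1KO, LPS against vehicle, r was 0.314, 0.537 and 0.00575 for numbers 1, 2 and 3, so number 3 showed no such pairing. Libraries of unlike number in different groups correlated at -0.527 to 0.218. Exon lengths and overlapping genes came from GENCODE M21 on GRCm38, used for no coordinates.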

Additional observations from a re-analysis of the deposited data

Results flagged for a closer look

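Fbxo32 was flagged because every Runx1KO library stood above the mean of Control with vehicle and every Runx1KO library stood below it with LPS. The difference of the LPS responses was -2.81 on the log2 scale (SE 0.95) and did not pass edgeR's test (adjusted p = 1, unadjusted p = 0.0122). The counts were low, and 199 of the 276 reads of Runx1KO vehicle came from library 3.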

How the results depend on the processing

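The cause of each change given here was not tested. Foxo1 between genotypes with LPS kept its direction in all 22 alternatives; it missed the threshold with the compared groups alone (2.54), and leaving out libraries gave 2.05 to 2.84. Genes called over all were 123 with vehicle and 119 with LPS. DESeq2 called 386 and 401, the replicate block 315 and 302, the compared groups alone 27 with LPS, and leaving out libraries gave 1 to 171 and 3 to 135. Of the 10 genes, 0 or 1 passed in both genotype comparisons when libraries were left out, and 0 with LPS in the compared groups alone. Pathway list genes called with LPS (1) were 3 with DESeq2 and with the block, 0 with limma-voom and the compared groups alone, and 0 to 1 without a library; with vehicle (0) they were 1 without a filter, 2 with DESeq2 and with the block, and 0 to 1 without a library. DESeq2 called 1 gene for LPS in Runx1KO. The replicate block changed no other call among the 10 genes and both lists. It is a fit with the library number as a term. For LPS against vehicle in Runx1KO, where number 3 showed no pairing, it called 0 genes. Library size alone as scaling moved the median log2 fold change of all genes to -0.14 for LPS in Control, -0.28 for LPS in Runx1KO and -0.15 for their difference, and the split of vehicle calls to 45 higher and 50 lower from 45 and 78. The Foxo3 difference of LPS responses (0.03) was -0.0085 with DESeq2 size factors, -0.0099 with DESeq2, -0.061 with library size, -0.0028 without a filter, -0.12 with limma-voom and -0.091 with the block. Ccng2 with LPS was -0.067 with library size and -0.11 with limma-voom, and its difference -0.18, -0.11 and, with the block, -0.045. Leaving out libraries gave these ranges that cross 0. Between genotypes with LPS they were -1.23 to 0.56 for Foxo3, -0.15 to 1.01 for Foxo4, -0.54 to 0.19 for Txnip, -0.076 to 0.89 for Sesn1, -0.28 to 0.56 for Ccng2, -0.63 to 0.22 for Irs2 and -1.26 to 0.56 for Cdkn1b. For LPS in Control they were -0.65 to 0.024 for Txnip, -0.018 to 0.82 for Klf2, -0.55 to 0.19 for Irs2 and -0.98 to 0.23 for Cdkn1b, and in Runx1KO -0.073 to 1.09 for Foxo4 and -0.77 to 0.57 for Sesn1. For the difference they were -0.62 to 0.026 for Foxo1, -1.13 to 0.63 for Foxo3, -0.83 to 0.34 for Foxo4, -0.047 to 0.79 for Klf2, -0.38 to 0.91 for Sesn1, -0.38 to 0.53 for Ccng2, -0.54 to 0.27 for Irs2 and -1.74 to 0.12 for Cdkn1b. Foxo4 and Fbxo32 rest on few reads.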
